A study of Mus musculus with 10 samples.

Results

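The 301 ATAC-seq peaks described here lie together in the interval of mouse chromosome 12 that holds the immunoglobulin heavy chain variable genes, and they were taken from the 246479 peaks that have counts in intestinal epithelial cells (IECs) of WT and Zip14 KO mice. ATAC-seq measures open chromatin as the number of fragments that the transposase Tn5 cuts out of each region. The peaks were chosen by their place in the numbered peak list, and the interval was drawn around a cluster of peaks whose counts stood high in 1 KO mouse, KO7. The counts of KO7 are therefore given as a description and are left out of the genotype tests given here.

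Mice WT1 to WT5 are 5 WT animals, and 5 KO animals are numbered KO6 to KO10. The KO mice carry a global, constitutive targeted deletion within Zip14 (Slc39a14), a zinc transporter, so every tissue lacks it, and WT mice are the Zip14+/+ offspring of crosses between heterozygotes on a C57BL/6 background. By the study's general methods they were young adults and, unless another sex was stated, females. The labels give the tissue as duodenum, and the methods describe IECs from duodenum together with upper jejunum. IECs were sorted by flow cytometry with antibodies to EpCAM, CD45, CD31 and TER-119, each library was 1 mouse, and no treatment was given. Peak counts per mouse summed to between 4731176 and 15775481.

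The heavy chain locus encodes the antibody heavy chain. It holds long arrays of variable (Ighv) gene segments, followed by diversity and joining segments and then the constant genes that define IgM, IgG, IgA and the other classes. In a developing B cell 1 segment of each kind is joined to make a variable exon, and a later switch changes the constant gene in use. The joined locus is opened and transcribed in B cells and plasma cells, whereas epithelial cells do not assemble it. In the RefSeq annotation of GRCm38.p6 (mm10, the build the labels give), 8 constant regions span chr12:113256204-113422730, 4 joining and 10 diversity segments follow them, and 120 variable segments with 63 variable pseudogenes run on from 113572929 to 116009954. Towards higher coordinates the order is thus constant, joining, diversity, then variable.

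The peaks carry Ensembl gene IDs but no coordinates or widths, so each is called here by its place in the interval, peak 1 to peak 301. In this numbered order 44575 of 44580 gene IDs form 1 unbroken run, compared with 26144 in the order of the deposited rows. The 301 peaks carry 165 gene IDs, 92 of them with a single peak and none with more than 10. Symbols were available for 4 of these IDs, through pairs of ID and symbol in the study's supplement, and these fixed where the interval lies. Ighv7-1 (peak 88) is a variable pseudogene at chr12:113896408-113896946, Ighv9-1 (peak 98) is at chr12:114093928-114094221, Ighv14-4 (peak 103) at chr12:114176438-114176867 and Ighv1-62-2 (peaks 193 and 194) at chr12:115446417-115446710. Their RefSeq starts rise in the same order as their peaks. The other 296 peaks are given without a gene name, some of them may belong to neighbouring genes outside the immunoglobulin genes, above all beyond peak 194 and before peak 88 where no named gene marks the order, and whether a peak covers a promoter, an exon or the space between segments is unknown. The variable segments fall into families whose members resemble each other closely, and since the sources used here do not say how reads that match several of them were counted, the split of counts between related segments is uncertain.

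The median count per peak was between 3 and 7 in the 10 mice, 131 of the 301 peaks (43.5%) had no count in at least 1 mouse, compared with 30.5% of all peaks, and 104 (34.6%) had fewer than 10 counts in every mouse, compared with 33.1%. Differences below are on counts divided by the deposited size factor of each mouse (normalized counts) unless CPM is named, the count scaled to a common total of 1000000 per mouse. In bulk chromatin more cells of a type and more open chromatin per cell cannot be told apart.

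KO7 stood far above the other mice at isolated peaks. In 10 of the 301 peaks KO7 had at least 50 normalized counts and was over 10-fold above every other mouse. Such peaks numbered 14 in the whole list, 0.00568% of all peaks, and each of the other 9 mice had 0. This cluster is what the interval was drawn around. The highest was peak 12 (ENSMUSG00000076615), with 3732 normalized counts in KO7 and between 0.845 and 9.74 in the other mice. Peak 7 (ENSMUSG00000076614) had 1245 in KO7 and between 1.47 and 5.63 elsewhere. Both come before Ighv7-1 in the order, on the side where the constant, joining, diversity and first variable segments lie.

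The other 8 peaks were spread from peak 89 to peak 245, through and beyond the named variable genes. Peak 92 had 2747 normalized counts in KO7, peak 165 had 1997, peak 238 had 1951, peak 245 had 1899.6 and peak 172 had 1821. These 5, with peaks 7 and 12, made an upper set of 7 between 1245 and 3732. The other 3 were lower, with 216 in peak 89, 196 in peak 103 and 69.3 in peak 159. Across the 10 peaks the fold over the next mouse ran from 12.4 in peak 159 to 383 in peak 12. The lowest fold that passed was thus close to the limit, and the peak just under it was peak 222, 7.62-fold above the next mouse with 259 normalized counts in KO7.

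**Figure D1:**
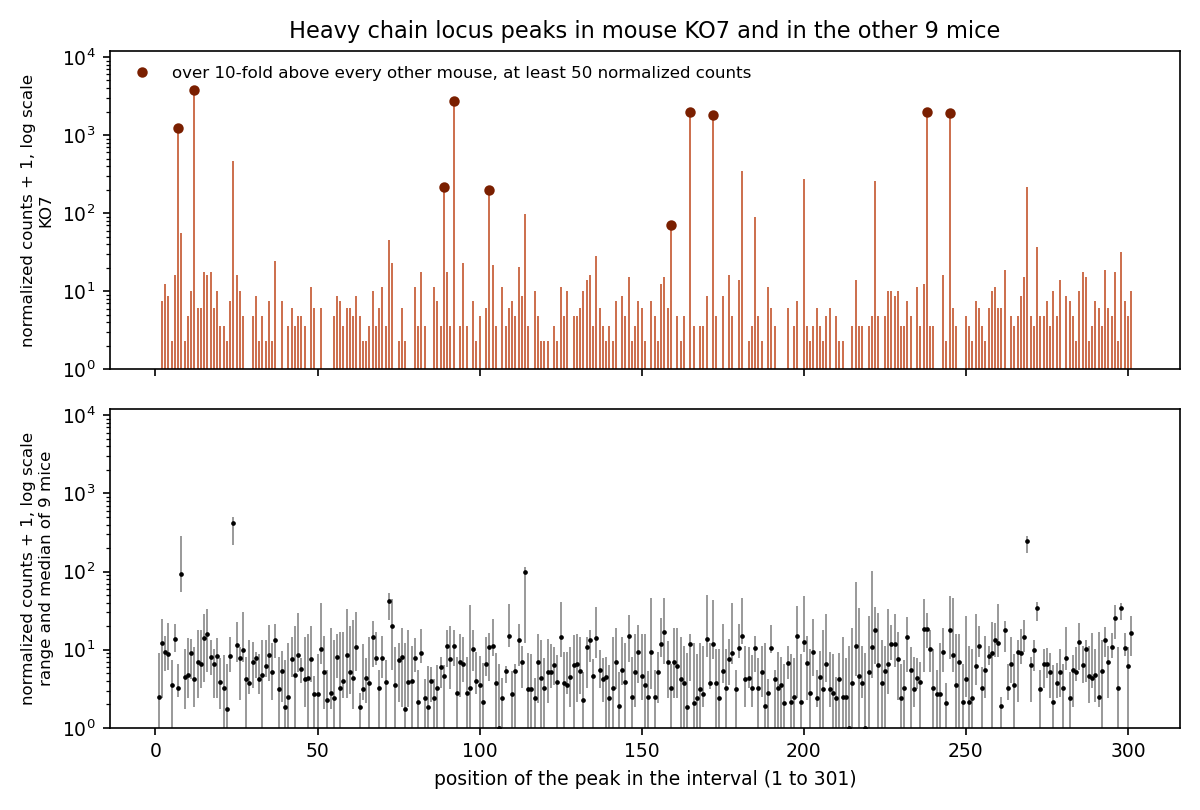
Normalized counts plus 1 (log scale) of the 301 peaks by their position in the interval, in KO7 (upper panel, lines, with filled points for the 10 peaks over 10-fold above every other mouse) and in the other 9 mice (lower panel, lines from the lowest to the highest mouse, points at the median). The 10 points lie between 69.3 and 3732 normalized counts and are spread from peak 7 to peak 245, where no other mouse exceeds 47.6.

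Ighv14-4, peak 103, is the only one of the 10 with a symbol. It had 13.6, 9.74, 10.3, 15.2 and 2.93 normalized counts in WT1 to WT5, 196 in KO7, and 4.35, 6.82, 10.2 and 8.44 in KO6, KO8, KO9 and KO10. Without KO7 the KO mice fell within the range of the WT mice. The other named variable genes did not stand high in KO7. Ighv7-1 had 2.57 normalized counts there and between 2.27 and 7.03 in the other mice, Ighv9-1 had 6.42 and between 4.40 and 17.0, and both peaks of Ighv1-62-2 had no counts in KO7.

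The high values in KO7 were at single peaks of the list. The 20 peaks directly before and after the 10 had between 0 and 43 counts in KO7, and the 43 belonged to peak 8, which shares its gene ID with peak 7 and in which 8 of the other 9 mice were higher. Peak 12 shares its ID with 7 further peaks, of which the highest had 13 counts in KO7. The 10 peaks held 12368 of the 14922 KO7 counts in the interval, which is 82.9% (95% Wilson interval 82.3 to 83.5, counting error only). Over all 301 peaks KO7 was the highest mouse in 12.6%, compared with 11.3% of all peaks, and the lowest in 11.6%, compared with 9.36%.

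**Figure D2:**
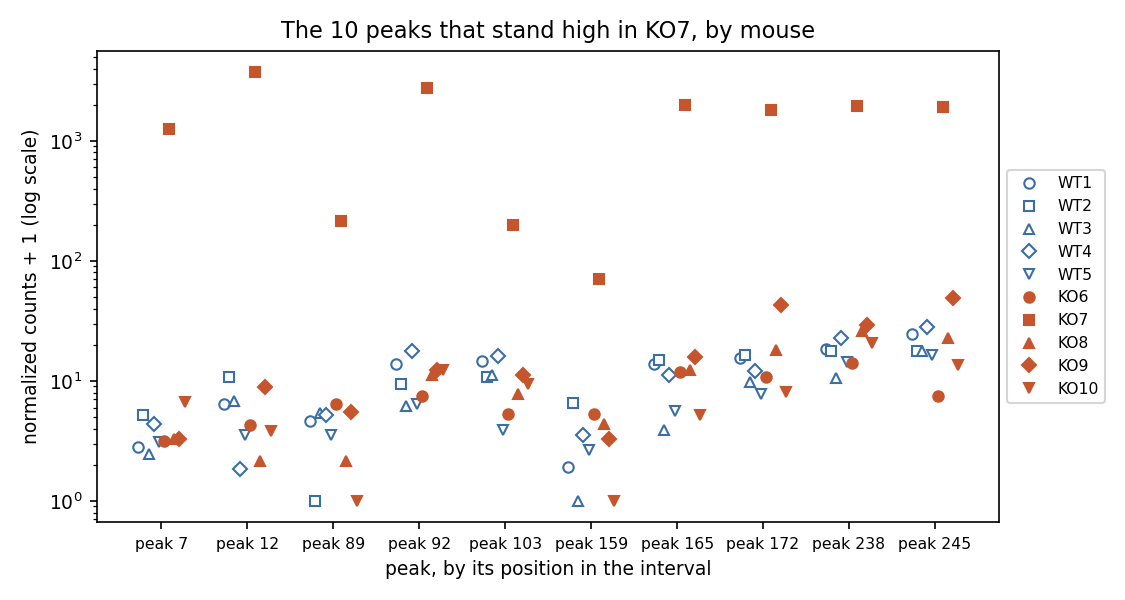
Normalized counts plus 1 (log scale) of the 10 peaks that stand high in KO7, 1 point per mouse, with WT mice as open symbols and KO mice as filled symbols. KO7 lies between 69.3 and 3732, and in each peak the WT mice and the other KO mice overlap.

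Outside the interval 4 further peaks met the same limits in KO7. The immunoglobulin kappa light chain locus, on chromosome 6, held 2 of them, among the 221 peaks within 100 of the named genes Igkv8-24 and Igkv6-13, with 4129 and 2603 normalized counts. The other 2 lay elsewhere, with 674 and 515. The 221 kappa peaks summed to 11059 normalized counts in KO7 and to between 3859 and 4358 in the other mice, and without those 2 peaks KO7 had 4327.

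Among the other 9 mice, KO9 was the one that stood apart, and over many peaks rather than a few. KO9 had the highest value of the 9 in 118 of the 301 peaks (39.2%), compared with 12.2% of all peaks. The other 8 mice were highest in between 1.99% (WT5) and 10.6% (WT2) of the 301. In 57 peaks (18.9%) KO9 had at least 10 counts and was over 1.5 times every other of these mice, compared with 1.42% of all peaks, and the ratio to the next mouse reached 5.32. In the kappa peaks KO9 was highest in 14.5%. These shares were noticed in the counts and are descriptions with no test.

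**Figure D3:**
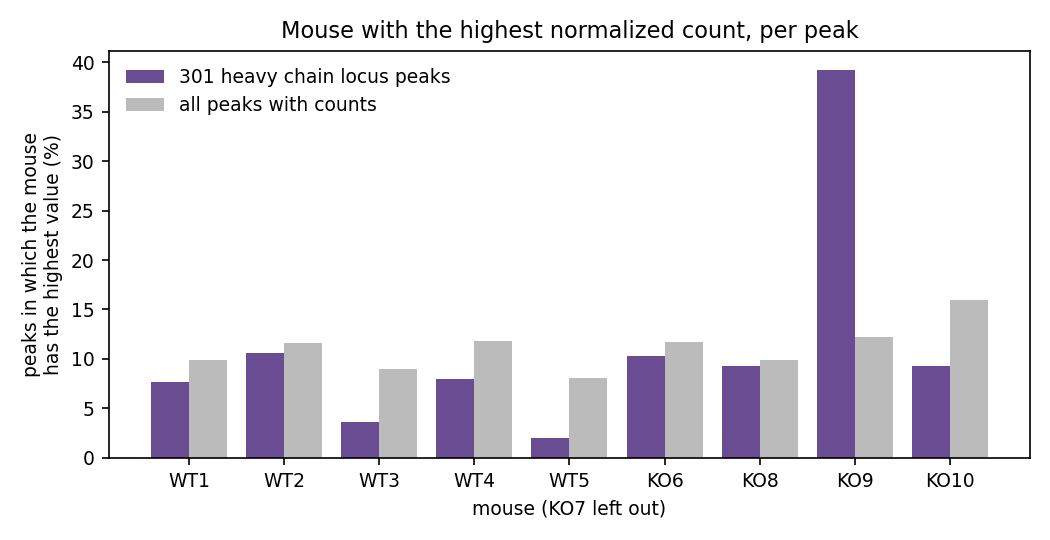
Share of peaks (%) in which each of the 9 mice other than KO7 has the highest normalized count, for the 301 heavy chain locus peaks (purple) and all peaks with counts (grey). KO9 reaches 39.2% in the heavy chain locus and 12.2% in all peaks, and no other mouse exceeds 10.6% in the locus.

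WT1 and KO8 came next, so the pattern crossed genotype. In the 118 peaks led by KO9 the second mouse was KO8 in 46 (39.0%) and WT1 in 32 (27.1%), compared with 12.9% and 10.5% of all peaks that KO9 led. WT3 and WT5 were second in 0. Peak 221 had 41.9 normalized counts in WT1, 34.1 in KO8 and 102 in KO9. The other WT mice had 4.18, 3.66, 3.38 and 4.19 there, KO6 had 11.9, KO7 had 3.85 and KO10 had 9.85. WT1, KO8 and KO9 did not overlap with the other 7 mice in this peak. Peak 216 was ordered in the same way, with 34.6 in WT1, 37.5 in KO8 and 72.6 in KO9 and between 3.66 and 12.8 in the other mice. Peaks 221 and 216, like peak 114 described further on, were picked after their values were seen.

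The correlation of these mice across the 301 peaks, on log2 values (pseudocount 1) with the mean of the 9 mice taken from each peak, was 0.30 for WT1 and KO9, 0.25 for KO8 and KO9 and 0.20 for WT1 and KO8. Over all peaks the same pairs gave -0.14, -0.09 and -0.13. The pair WT3 and WT5 also gave 0.30 (0.03 over all peaks), WT4 and WT5 gave 0.27 (0.18), and WT5 and KO9 gave -0.48 (-0.20). The points share libraries and depth, and WT5 had the most counts of the 10 mice.

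The lead of KO9 was uneven along the interval. In consecutive blocks of 50 peaks, peaks 201 to 250 summed to 898 normalized counts in KO9, 493 in KO8 and 458 in WT1. The other mice had 214, 169.99, 257 and 158 in WT2 to WT5, 261 in KO6 and 222 in KO10, so the highest mouse was 5.67 times the lowest. Peaks 151 to 200, the block with Ighv1-62-2, gave 681 in KO9, 381 in KO8, 335 in WT1 and between 186 and 325 in the other mice. Peaks 101 to 150, the block with Ighv14-4, did not show this order, with WT4 highest at 439, KO9 at 382 and WT1 lowest at 300.2. The last 51 peaks were nearly level, between 551 in KO6 and 678 in WT3. KO9 led 64.0% of peaks 201 to 250, 60.0% of peaks 151 to 200 and 19.6% of the last 51.

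**Figure D4:**
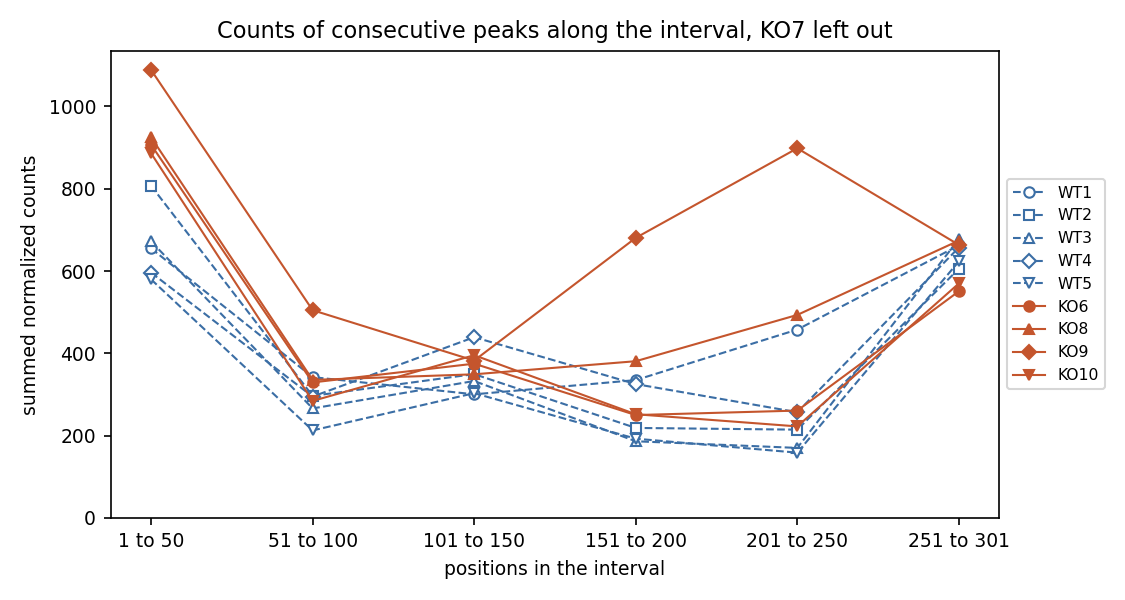
Summed normalized counts of consecutive blocks of 50 peaks (51 in the last) along the interval in the 9 mice other than KO7, with WT mice as open symbols and dashed lines and KO mice as filled symbols and full lines. KO9, KO8 and WT1 rise to 898, 493 and 458 in peaks 201 to 250, and all 9 mice lie between 551 and 678 in the last block.

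In the first 50 peaks, the side towards the constant genes, WT1 to WT5 had 655, 807, 672, 596 and 579.7 normalized counts, KO6 had 907, KO8 had 925, KO9 had 1089 and KO10 had 886. These 4 KO mice lay above the WT mice, while KO7, without its high peaks 7 and 12, had 775, which is within the WT range (575 to 793 without the same peaks). The blocks were drawn after the values were seen and were given no test. Peak 24, the peak of highest mean CPM, and peak 8 held much of that block. Peak 24 had 217, 429, 419.8, 278 and 303 in WT1 to WT5, and 439.96, 428, 349 and 501 in KO6, KO8, KO9 and KO10, so the genotypes overlapped there. KO7 had 458.

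A smaller set of peaks was low in KO9. In 14 peaks (4.65%) KO9 was under 0.5 times every other of the 9 mice, compared with 1.97% of all peaks. In 12 of the 14 KO9 had only 0 or 1 counts, with no minimum count set here, so only peaks 73 and 114 have more behind them. The highest counts were in peak 114 (ENSMUSG00000076676), with 45.5, 98.8, 96.7, 115 and 101 normalized counts in WT1 to WT5, 79.3 in KO6, 97.5 in KO7, 61.4 in KO8, 11.3 in KO9 and 97.1 in KO10. The value in KO9 rests on 10 counts. WT1 and KO8 were the next lowest in this peak, but over the 14 peaks the next lowest mouse was WT1 in 4, WT5 in 4, WT4 in 3 and KO8 in 1. Of the 14 peaks, 1 lay in the first block, 3 in the block from 51 to 100, 6 in the block from 101 to 150, none between peaks 151 and 250, and 4 in the last block.

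The comparison of KO with WT asks whether chromatin across the locus differed between the genotypes. With KO7 left out it rested on 4 KO and 5 WT mice. Summed CPM of the 301 peaks was 413, 344, 325, 351 and 313 in WT1 to WT5, 405 in KO6, 456 in KO8, 666 in KO9 and 392 in KO10. KO mice averaged 479.6 ± 127 (SD, n = 4) and WT mice 349.2 ± 38.9 (SD, n = 5), a ratio of 1.37 (p = 0.0476 by exact permutation, two-sided, with 0.0159 as the lowest p this design allows). WT1 was above KO6 and KO10, so the groups overlapped on this scale. With TMM scaling they separated narrowly, the lowest KO mouse at 442.95 CPM and the highest WT mouse at 442.26, and with median-of-ratios scaling at 2802 and 2797 normalized counts (exact p = 0.0159 for both). Without KO9 the KO mean exceeded the WT mean by 68.4 CPM, in place of 130.4, and p was 0.107 by the same exact test, whose smallest p is then 0.0357. The p was also over 0.05, between 0.0714 and 0.107 (exact), when any 1 of the other mice except WT1 was left out, and 0.0794 (exact) without peak 24. KO7 had 2637 CPM in all 301 peaks and 451 in the 291 left without the 10 high peaks.

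**Figure D5:**
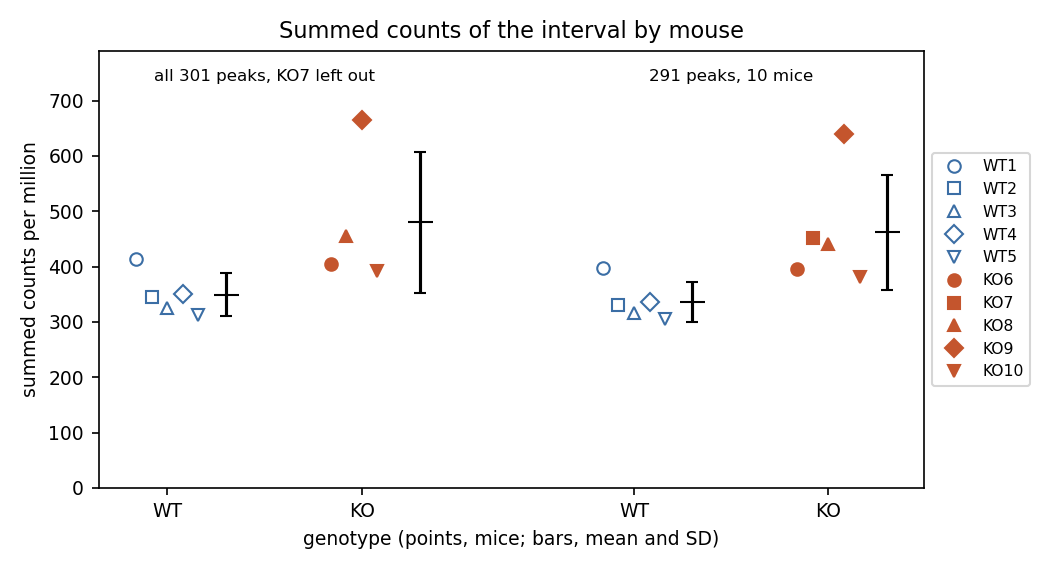
Summed CPM of the interval by mouse, for all 301 peaks with KO7 left out and for the 291 peaks without the 10 high in KO7 in all 10 mice, with WT mice as open symbols, KO mice as filled symbols and bars for the mean and SD of each group. KO9 lies highest in both, at 666 and 639 CPM, and WT1 lies above KO6 and KO10.

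The 5 peaks of the named variable genes summed to between 2.22 and 5.06 CPM in WT mice and to between 3.95 and 5.19 in KO6, KO8, KO9 and KO10. The means were 3.71 ± 1.20 (SD, n = 5) and 4.53 ± 0.596 (SD, n = 4), and the genotypes overlapped and gave p = 0.317 by exact permutation, two-sided. KO7 had 28.3 CPM, of which Ighv14-4 made up most.

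Peak by peak, none of the heavy chain locus peaks passed an adjusted p of 0.05 in edgeR's quasi-likelihood test, where 61 of 85940 tested peaks did (0.071%). Of the 301, 58 passed the filter on low counts, and since a peak can pass through the genotype in which it is high, the counts over all 301 are given too. At an unadjusted p under 0.05, 28 of the 58 were higher in KO (48.3%), against 11.2% of all tested peaks, and 1 was lower, against 5.66%. Without the filter 72 of the 301 were higher (23.9%), against 7.52%, and 5 were lower (1.66%), against 7.39%. DESeq2 found 20 of the 58 at an unadjusted p under 0.05, against 12.5% of all tested peaks, and 1, peak 16, at an adjusted p under 0.05, against 0.527%. Peaks past an adjusted p of 0.05 in edgeR made up 0.0868% of all peaks without the filter, 0.105% without WT1 and 2.2% without WT2, and 1, 1 and 3 of the heavy chain locus peaks were among them.

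These shares rested on KO9. With KO9 left out as well, 8 of 70 tested peaks were higher in KO (11.4%), against 8.42% of all tested peaks, and without the filter 19 of the 301 were (6.31%), against 6.19%. The median log2 fold change over the 301 was 0.48 with KO9 and 0.28 without it, beside 0.05 and 0.03 over all peaks.

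The peaks of lowest p with higher counts in KO were 8, 16 and 2. Peak 8 had 119, 75.2, 56.4, 54.1 and 57.0 normalized counts in WT1 to WT5, 92.3 in KO6, 163 in KO8, 280.2 in KO9, 92.9 in KO10 and 55.2 in KO7. WT1 lay above KO6 and KO10 there. Its log2 fold change was 1.29 ± 0.29 (SE), with an adjusted p of 0.0673 in edgeR, and 0.83 without KO9. Peak 16 (same ID as peak 12) had 10.01, 13.9, 14.7, 4.22 and 13.0 in WT1 to WT5, 27.2 in KO6, 25.0 in KO8, 17.0 in KO9 and 32.4 in KO10. All 4 KO mice were above all 5 WT mice in this peak and KO7 was at 15.4, also above them. Its log2 fold change was 1.31 ± 0.30 (SE, adjusted p = 0.0674 in edgeR). Without KO9 it was 1.45 (adjusted p = 0.186 in edgeR), so the size of the change did not depend on that mouse. Peak 2 had between 1.39 and 11.8 in WT mice, 11.9 in KO6, 12.5 in KO8, 23.8 in KO9 and 11.3 in KO10 (log2 fold change 1.49 ± 0.43, SE, adjusted p = 0.101 in edgeR). KO7 was at 6.42 in this peak, within the WT range, and without KO9 the log2 fold change was 1.16 (adjusted p = 0.335 in edgeR).

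The peaks of lowest p with lower counts in KO were 73, 285 and 269. Peak 73 (ENSMUSG00000103446) had 16.4, 43.2, 37.4, 33.8 and 18.9 in WT1 to WT5, 15.2 in KO6, 17.0 in KO8, 4.54 in KO9 and 22.5 in KO10, and the genotypes overlapped (log2 fold change -0.84 ± 0.37, SE, adjusted p = 0.254 in edgeR). Without KO9 its log2 fold change was -0.55, with an unadjusted p of 0.129 in edgeR. Peak 285 had a log2 fold change of -0.65 and peak 269, which had the second highest mean CPM of the interval, one of -0.16, and neither reached an unadjusted p of 0.05 in edgeR. Without the filter both did, with log2 fold changes of -0.82 (adjusted p = 0.255 in edgeR) and -0.32 (adjusted p = 0.245 in edgeR).

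Of the 10 peaks high in KO7, 5 passed the filter on low counts in the other 9 mice, and none differed between KO and WT at an adjusted p of 0.05 in edgeR. KO9 was the second highest mouse in 4 of the 10, peaks 165, 172, 238 and 245, a share close to its 39.2% of the interval, and in the other 6 the second was KO6, KO10, WT2 or WT4. Peak 172 had 42.0 normalized counts in KO9 and between 6.71 and 17.0 in the other 8 mice. Peak 245 had 47.6 in KO9 and between 6.52 and 27.0 in the others. None of the fixed marker genes of B cells, plasma cells, T cells or epithelium was paired with a gene ID in the sources used here, so the level of those cell types in each library was not measured, and their part in the values of KO7 and KO9 was not tested. Only counts were analysed, and whether the mice differ in DNA sequence at this locus was not tested.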

How the data were processed

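For each mouse the authors deposited whole-number counts of ATAC-seq reads (sorted IECs, paired-end) over 1 shared peak set, with 1 gene ID per peak. They also deposited a normalized signal, which equals the count divided by 1 factor per mouse. The labels name the build mm10. Aligner, peak caller, treatment of duplicates, of reads with several matches and of the Tn5 offset are not given in the sources used here. Peak rows were numbered as text strings, which restores genome order, and 301 rows with numbers 54550 to 54850 were taken. The members, gene lists and tests were chosen with earlier results of these data known.

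Counts of 5 WT and 4 KO mice, without KO7, were filtered with filterByExpr by genotype, normalized by TMM and tested with edgeR 4.0.16 (glmQLFit, glmQLFTest, R 4.3.3, Benjamini-Hochberg adjustment over all tested peaks), and the SE was taken from the fold change and F statistic. DESeq2 1.42.0 was an alternative. The fit was tested on simulated data. Sums per mouse were compared by exact permutation with scipy 1.17.1. Peaks were named by fixed rules: those over 10-fold above every other mouse in KO7, the 3 of highest mean CPM, the 3 of lowest p in each direction, and those with a symbol. Classes of gene (variable, diversity, joining, constant), members outside the immunoglobulin genes and marker genes could not be assigned, because too few IDs were paired with symbols, so the 2 planned sums over them were not run.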

Additional observations from a re-analysis of the deposited data

Results flagged for a closer look

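Values far from the rest of their group were sought with Dixon's ratio in 63 groups of 4 or 5 mice, and chance alone marks about 1 group in 20. It marked 14. In 10 of these KO7 was the high mouse of the KO group in the 10 peaks that chose the interval, with 1245 normalized counts in peak 7, 3732 in peak 12, 216 in peak 89, 2747 in peak 92, 196 in peak 103 (Ighv14-4), 69.3 in peak 159, 1997 in peak 165, 1821 in peak 172, 1951 in peak 238 and 1899.6 in peak 245. KO7 was also the high mouse in summed CPM of all 301 peaks (2637, next mouse KO9 at 666) and of the peaks with a variable gene symbol (28.3, next mouse at 5.19). These 12 marks repeat the choice of the interval.

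KO9 was the high mouse in the other 2. Summed CPM without the 10 peaks high in KO7 was 639 in KO9, and the next KO mouse, KO7, had 451. Peak 2 had 23.8 normalized counts in KO9 and at most 12.5 in the other KO mice without KO7. Outside the interval, the 221 peaks around the named kappa variable genes summed to 11059 normalized counts in KO7, above all 5 WT mice, where the highest of the other 9 mice had 4358. Causes were not tested.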

How the results depend on the processing

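Summed CPM of all 301 peaks was higher in KO in every alternative without KO7. Fits with KO7 included were planned and run, but the interval was chosen by its counts, so they support nothing and are not given. Its p rose over 0.05 without the peak of highest mean count (difference of 112.6 CPM, exact p = 0.0794) and without any 1 further mouse other than WT1, where the difference ranged from 68.4 (without KO9) to 159.6 (without KO10) and exact p reached 0.107. It stayed under 0.05 with TMM or median-of-ratios scaling. The difference in the sum over the named variable genes turned to -0.0797 CPM without its peak of highest mean CPM, Ighv9-1 (exact p = 0.921). It otherwise kept its direction. Peaks past an adjusted p numbered 0 without TMM, 1 (peak 8) without the filter on low counts and 1 (peak 16) with DESeq2, and from 0 to 3 with 1 mouse left out (1, peak 8, without WT1 and 3, peaks 8, 16 and 24, without WT2, where the count over all peaks rose from 61 to 1938). At an unadjusted p under 0.05 in edgeR there were 29 of 58 tested heavy chain locus peaks, against 14449 of 85940 over all tested peaks. Without the filter there were 77 of 301, against 36768 of 246475. The number tested changed with the mouse left out. The fewest were 8 of 70 without KO9, against 12095 of 94414. The most were 38 of 82 without KO10, against 14041 of 95674. There were 18 of 51 without WT3, against 12558 of 83084, and 18 of 55 without WT5, against 10345 of 82687. The count of peaks high in KO7 ranged from 8 at 20-fold to 14 at 5-fold. KO9 led 64 of 144 peaks (44.4%) with a mean of at least 5 normalized counts, compared with 10.7% of all such peaks, and 127 of the 301 (42.2%) with total counts, compared with 15.6%, both chosen after seeing the data. No paired analysis was possible because no number is used in both genotypes. Depth limits the faint peaks, with a median of 3 to 7 counts per peak.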
